A study of Mus musculus with 4 samples.

Results

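The transcripts described here are those of 10 genes of interleukin 1 (IL-1) family signalling in mouse T-helper 17 (Th17) cells, the CD4 T cells defined by the secretion of interleukin 17. The 10 were chosen by symbol, namely Il1r1, Il1r2, Il1rap, Il1rn, Il18r1, Il18rap, Il1rl1, Il1rl2, Sigirr and Myd88, and all 10 were found among the 50600 genes in the files. RNA sequencing was deposited for 4 libraries of 1 group, numbered as biological replicates 1 to 4, from primary Th17 cells of the C57BL/6NJ strain, and the names in the file headers carry the marks sorted and 72 hr. The labels give no treatment, genotype difference, age or sex, so levels were compared between genes within a library and between the 4 libraries. Levels are given in TPM, the abundance per base of exon scaled to 1 fixed total per library. Although a single donor label covers the 4 libraries, sex-linked transcripts split them. Xist was at 177 TPM in replicate 1 and 193 in replicate 2, but at 2.15 and 0.598 TPM in replicates 3 and 4. The Y-linked Ddx3y ran the other way, with 59.7 TPM in replicate 3 and 55.2 in replicate 4 and at most 0.165 in the other 2. How many animals or cultures stand behind the libraries is not labelled, so every p-value applies only to these samples.

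Library totals ran from 9382661 counts in replicate 3 to 34542693 in replicate 1, and where a gene has 0 counts, a true level of up to 3 counts per library cannot be told from none. The 6 Th17 markers, with a median of 183 ± 7.49 TPM (SD, n = 4), and the 5 T-cell markers, with a median of 564 ± 30.2 TPM, all passed 1 TPM throughout. Replicate 4 stood apart, with a chi-square per gene of 14.8 to 19.9 against each other library, beside 3.47 to 7.76 among replicates 1 to 3. Of 21751 protein-coding genes, 47.6% reached 1 TPM in every library, beside 9 of the 10 genes here. In bulk RNA, fewer cells that carry a transcript and less transcript per cell cannot be told apart.

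IL-1 family receptors act as pairs. A ligand-binding chain recruits an accessory chain, and their cytoplasmic TIR domains together draw in the adaptor MYD88, which assembles IRAK kinases and TRAF6 and so activates NF-kappaB and MAP kinases. Signalling is held back by decoy receptors without a TIR domain, by receptor antagonists and by inhibitory receptors such as SIGIRR. In mouse, IL-1 acting on developing Th17 cells is known to promote the lineage, IL-18 receptors are best known on Th1 and natural killer cells, and the IL-33 receptor on Th2 cells, regulatory T cells and type 2 innate lymphoid cells.

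RefSeq start-site windows, from 250 bases before to 50 bases after an annotated start, were at hand for 9 of the 10 genes, with 15 windows in all (build GRCm38.p6). The first set shown is that of Il1r1, the ligand-binding chain with the highest level below, because it has a pair of annotated starts that counts per gene do not separate. Capitals mark CG dinucleotides. The upstream window lies at chr1:40224830-40225129 and the downstream one at chr1:40266336-40266635, both on the plus strand.
Il1r1 upstream start: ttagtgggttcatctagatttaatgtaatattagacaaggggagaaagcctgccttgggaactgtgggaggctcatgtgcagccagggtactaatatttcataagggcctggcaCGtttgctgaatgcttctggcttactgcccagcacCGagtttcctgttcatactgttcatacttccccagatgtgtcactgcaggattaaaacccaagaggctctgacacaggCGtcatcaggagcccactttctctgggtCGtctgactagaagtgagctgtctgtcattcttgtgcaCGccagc
Il1r1 downstream start: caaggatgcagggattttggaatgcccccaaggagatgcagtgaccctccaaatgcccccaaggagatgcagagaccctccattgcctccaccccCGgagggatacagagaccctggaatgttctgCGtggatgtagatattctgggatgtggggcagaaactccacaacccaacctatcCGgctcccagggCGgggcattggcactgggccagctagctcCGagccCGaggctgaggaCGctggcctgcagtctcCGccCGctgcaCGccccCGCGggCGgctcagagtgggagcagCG
The upstream window held 5 CG dinucleotides at 49.3% GC, and the downstream window 14 at 63.3% GC, against a median of 52.7% GC over the 32851 windows in the table. The ratio of observed to expected CG was 0.274 upstream and 0.465 downstream, beside a median of 0.384 over all windows.

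The second set shows the decoy receptor gene Il1r2 (chr1:40085843-40086142, plus strand) and the first of 3 annotated starts of the antagonist gene Il1rn (chr2:24336610-24336909, plus strand), which had the largest coefficients of variation between libraries of the 9 genes tested below. The RefSeq start of Il1r2 lies inside the longer gene of the files' annotation. Capitals mark matches to any of 6 motifs searched on both strands. The GAS motif of STAT factors was written TTCNNNGAA, and AP-1 was written TGANTCA. For ROR receptors, which include the Th17 factor ROR gamma t, the half-site searched was AGGTCA, while for basic helix-loop-helix factors the E-box searched was CACGTG. The box of the basal transcription machinery was searched as TATAAA. For NF-kappaB the search took GGGA, any 4 bases and then CC.
Il1r2: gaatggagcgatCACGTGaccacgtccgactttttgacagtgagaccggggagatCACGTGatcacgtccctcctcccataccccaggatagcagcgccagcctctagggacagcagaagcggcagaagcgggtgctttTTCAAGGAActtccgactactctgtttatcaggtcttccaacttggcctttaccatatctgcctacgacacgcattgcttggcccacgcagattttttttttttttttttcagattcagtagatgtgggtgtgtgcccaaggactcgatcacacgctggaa
Il1rn first start: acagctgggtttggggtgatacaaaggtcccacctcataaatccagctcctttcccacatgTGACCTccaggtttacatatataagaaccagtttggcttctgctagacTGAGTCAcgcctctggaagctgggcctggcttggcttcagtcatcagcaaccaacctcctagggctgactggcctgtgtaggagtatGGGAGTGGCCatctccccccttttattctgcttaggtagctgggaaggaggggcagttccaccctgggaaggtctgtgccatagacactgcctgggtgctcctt
The Il1r2 window held 2 E-boxes, starting 238 and 195 bases before the start site, and 1 GAS match at 111 bases before it, with no overlap between them. The Il1rn window held 1 ROR half-site, 1 AP-1 match and 1 NF-kappaB match, none overlapping. Over all 32851 windows the E-box was found in 7.15%, GAS in 8.3%, AP-1 in 7.81%, NF-kappaB in 20.7%, the ROR half-site in 16.3% and TATA in 13.6%. No match was found in 7 of the 15 windows, those of Il1r1 included. Elsewhere, the window of Il1rap held an NF-kappaB match, that of Myd88 a GAS match and 2 overlapping TATA matches, and the third window of Il18r1 held 2 GAS matches. The second window of Il1rl1 held a ROR half-site, while the Il1rl2 window and the third Il1rn window each held a TATA match. A match describes the letters of a window and is not a measured binding site.

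Myd88, the adaptor that all signalling members of the family share, was the most abundant of the 10 transcripts. It had 139, 124, 141 and 119 TPM in replicates 1 to 4 (ENSMUSG00000032508.8, chr9:119335934-119341411, mm10, minus strand). The values stayed within a 1.18-fold range, with replicates 3 and 1 at the high end and replicate 4 at the low end. At a mean of 131 ± 10.8 TPM (SD, n = 4) it ranked 1508th among protein-coding genes.

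Sigirr, which encodes a single-immunoglobulin receptor that dampens IL-1 and Toll-like receptor signalling, came next. Its levels were 109, 111, 89.0 and 107 TPM in replicates 1 to 4 (ENSMUSG00000025494.8, chr7:141091175-141100572, minus strand), a mean of 104 ± 10.04 TPM. Replicate 3 was below the other 3 libraries, which lay close together. Among the 8 receptor genes, decoy included, Sigirr held 52.3 ± 4.66% of the summed TPM of 199 ± 7.20 (SD, n = 4).

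Il1r1, the signalling receptor for IL-1 alpha and IL-1 beta, was the most abundant ligand-binding chain. It had 63.2, 56.0, 69.9 and 47.2 TPM in replicates 1 to 4 (ENSMUSG00000026072.12, chr1:40225080-40317257, plus strand), from 4221, 2583, 1268 and 2635 counts. The exact 95% Poisson intervals of the 4 levels, which cover counting error only, did not overlap between replicate 3 (66.1 to 73.9 TPM) and replicate 4 (45.5 to 49.1 TPM). Its mean of 59.1 TPM made up 29.7 ± 4.71% of the receptor total.

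The accessory chain gene Il1rap, whose product pairs with the IL-1, IL-33 and IL-36 binding chains, was far lower per base of exon. It had 5.68, 5.43, 5.96 and 5.24 TPM in replicates 1 to 4 (ENSMUSG00000022514.14, chr16:26581704-26730117, plus strand), a range of 1.14-fold. The Il1r1 level was 11.1, 10.3, 11.7 and 9.01 times that of Il1rap in replicates 1 to 4, or 3.18 ± 0.173 higher on the log2(TPM + 1) scale (SD, n = 4). The size of this ratio depends on the length used. The files count 11360 bases of annotated exon for Il1rap, while its longest coding transcript has 4520, and with that length Il1rap stood at 10.2 TPM and Il1r1 at 47.0 TPM.

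Il1r2, the decoy receptor that binds IL-1 without a TIR domain, was present at a low level. It had 2.40, 4.12, 2.57 and 4.54 TPM in replicates 1 to 4, from 48, 57, 14 and 76 counts (ENSMUSG00000026073.13, chr1:40074079-40125231, plus strand). Replicates 2 and 4 were above replicates 1 and 3, but the interval of replicate 3 (1.41 to 4.32 TPM) reached into those of replicates 2 and 4. Il1r1 exceeded Il1r2 in every library, by 26.4, 13.6, 27.2 and 10.4 times in replicates 1 to 4. The Il1r1 to Il1r2 difference was 3.79 ± 0.583 on the log2(TPM + 1) scale, the widest SD of the 8 gene pairs compared.

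Il1rn encodes the IL-1 receptor antagonist, a ligand that occupies IL1R1 without signalling. It was transcribed at 17.5, 17.0, 23.2 and 10.6 TPM in replicates 1 to 4 (ENSMUSG00000026981.15, chr2:24336853-24351494, plus strand). Replicates 1 and 2 lay together, replicate 3 above them and replicate 4 below, and the Poisson intervals of replicate 3 (20.9 to 25.7 TPM) and replicate 4 (9.74 to 11.6 TPM) were apart. Counts per gene do not separate the secreted from the intracellular forms of the antagonist. Macrophages and neutrophils are known sources of this RNA. None of 7 macrophage and monocyte markers passed 1 TPM throughout, their summed level was 0.958 to 2.80 TPM, and C1qa and Fcgr1 had no count. Most of that sum was Cd14, at 1.76, 2.55, 0.670 and 1.96 TPM in replicates 1 to 4, with the value of replicate 3 resting on 3 counts. Of 7 neutrophil markers 5 had no count, S100a8 and S100a9 among them, and the sum was 0.196 to 0.488 TPM. The part of these cells in the Il1rn counts was not tested.

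The IL-18 receptor chains were close to each other in level. Il18r1, the ligand-binding chain, had 8.91, 8.63, 9.76 and 10.3 TPM in replicates 1 to 4 (ENSMUSG00000026070.15, chr1:40465552-40500854, plus strand). Il18rap, its accessory chain, had 10.7, 10.6, 11.7 and 9.04 TPM (ENSMUSG00000026068.11, chr1:40515362-40551705, plus strand). The Il18r1 level was 0.830, 0.815 and 0.835 times that of Il18rap in replicates 1 to 3 and 1.14 times in replicate 4, so the libraries did not share 1 direction. Il1r1 exceeded Il18r1 by 4.58 to 7.16 times within a library. Natural killer and Th1 cells are known sources of both chains. Of 5 natural killer markers, Ncr1, Klrb1c and Klra8 had no count, while Nkg7 and Klrd1 were at 8.82 and 3.60 TPM in the mean. The summed level of the 5 was 10.4 to 18.1 TPM. Of 3 Th1 markers, the transcription factor gene Tbx21 had 22.0, 21.6, 22.4 and 15.3 TPM in replicates 1 to 4, while Ifng and Eomes were at 0.0404 and 0.0687 TPM in the mean, and the sum of the 3 was 15.5 to 22.4 TPM. The part of either cell type in the counts of the chains was not tested.

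Il1rl2, the IL-36 receptor, had 6.42, 6.65, 6.18 and 6.97 TPM in replicates 1 to 4 (ENSMUSG00000070942.8, chr1:40324610-40367562, plus strand). Its spread in CPM (counts scaled for depth with TMM library factors, with no length) was 4.46%, below the 6.22% that counting error alone gives at its depth. Il1rl2 was 1.04 to 1.33 times Il1rap within a library. This order turned round in favour of Il1rap when the longest coding transcript was used for the length, at -0.27 on the log2(TPM + 1) scale.

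Il1rl1, which encodes the IL-33 receptor ST2, was the only one of the 10 below 1 TPM. It had 0.304, 0.320, 0.102 and 0.265 TPM in replicates 1 to 4, from 22, 16, 2 and 16 counts (ENSMUSG00000026069.15, chr1:40429570-40465415, plus strand). The value of replicate 3 rests on 2 counts, with an interval of 0.0123 to 0.368 TPM that spans the other 3 values. Per base, Il1rl1 was 0.0171 to 0.0590 times Il1rap. Of the cell types known for this receptor, 6 of 7 mast cell and basophil markers had no count and the sum was 0.118 to 0.203 TPM. Of the 4 Treg markers, 2 (Ikzf2 and Nrp1) passed 1 TPM throughout and the sum was 12.3 to 15.8 TPM, with Foxp3 at 0.382, 0.277, 1.85 and 0.200 TPM in replicates 1 to 4. Of the 4 Th2 markers, 2 (Gata3 and Il13) passed 1 TPM throughout, and the sum was 4.45 to 6.16 TPM, with Gata3 at 3.19 TPM in the mean. The part of these cells in the Il1rl1 counts was not tested.

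**Figure D1:**
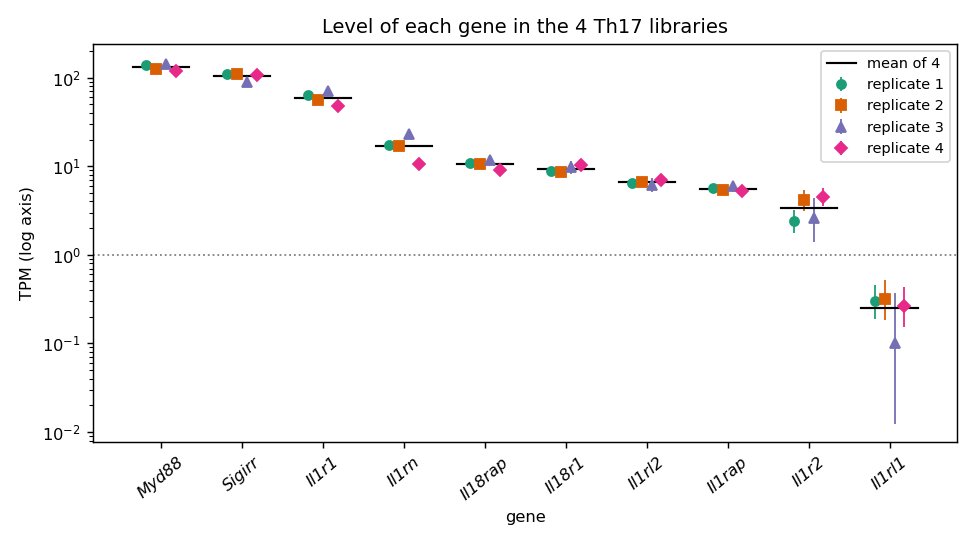
TPM (log axis) of the 10 genes in each of the 4 Th17 libraries, ordered by mean level. Symbols are libraries, vertical lines exact 95% Poisson intervals of the count, black bars the mean of 4, and the dotted line 1 TPM. Levels run from 131 TPM for Myd88 to 0.248 TPM for Il1rl1, the only gene below 1 TPM.

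Ordered by mean TPM, the genes ranked Myd88, Sigirr, Il1r1, Il1rn, Il18rap, Il18r1, Il1rl2, Il1rap, Il1r2 and Il1rl1. Of the 9 neighbours in this order, 8 kept 1 direction in 4 of 4 libraries, the exception being Il18rap and Il18r1, whose difference of 0.14 ± 0.212 on the log2(TPM + 1) scale was within its spread. An exact sign-flip permutation test, with both tails, gave p = 0.13 for the 8 pairs and p = 0.25 for Il18rap and Il18r1, and 0.14 and 0.25 after Benjamini-Hochberg adjustment over the 9 pairs. The smallest p that 4 libraries allow is 0.13, so no pair could reach 0.05. Any pair with 1 direction in all libraries gets this p, whatever the size or SD of its difference. The order was also taken from the same 4 libraries, so the mean direction of a pair was largely set in advance. The test is therefore no support for the order. Il1rl2 and Il1rap differed by 0.20 ± 0.132 and Myd88 and Sigirr by 0.33 ± 0.235 log2 units, within 1.04-fold and 1.12-fold in the library where each pair was closest. The Il1r2 to Il1rl1 step was 7.88 to 25.3-fold in TPM, and its 1.79 ± 0.327 on the log2(TPM + 1) scale understates it, since a pseudocount of 0.1 TPM gave 3.34. The Il1r1 to Il1rn step was 3.01 to 4.44-fold, or 1.77 ± 0.215 on the log2(TPM + 1) scale, and 0.77 with the length of the longest coding transcript. Several directions depend on the length used. Myd88 and Sigirr no longer shared 1 direction in all libraries without a length correction (0.09 on the log2(CPM + 1) scale, exact sign-flip permutation p = 0.625) or with the longest coding transcript (0.11 on the log2(TPM + 1) scale, exact p = 0.5), whereas Il18rap then exceeded Il18r1 in 4 of 4 libraries, by 0.61 and 0.37.

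The 8 functional pairs set binding chains beside accessory chains, and brakes and adaptor beside the IL-1 receptor. Myd88 stood above Il1r1 in every library, at 2.20, 2.21, 2.01 and 2.52 times in replicates 1 to 4. Sigirr also stood above Il1r1 in every library, at 1.72, 1.98, 1.27 and 2.26 times. In 7 of the 8 pairs all libraries shared 1 direction, with p = 0.13 each (exact sign-flip permutation test, both tails, adjusted p = 0.14 over the 8 pairs), the exception being Il18r1 and Il18rap. These are ratios per base of exon. Without a length correction, Il1r1 had more counts than Sigirr and Myd88 on average, and the differences of Sigirr and Myd88 from Il1r1 were -0.24 and -0.15 on the log2(CPM + 1) scale.

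**Figure D2:**
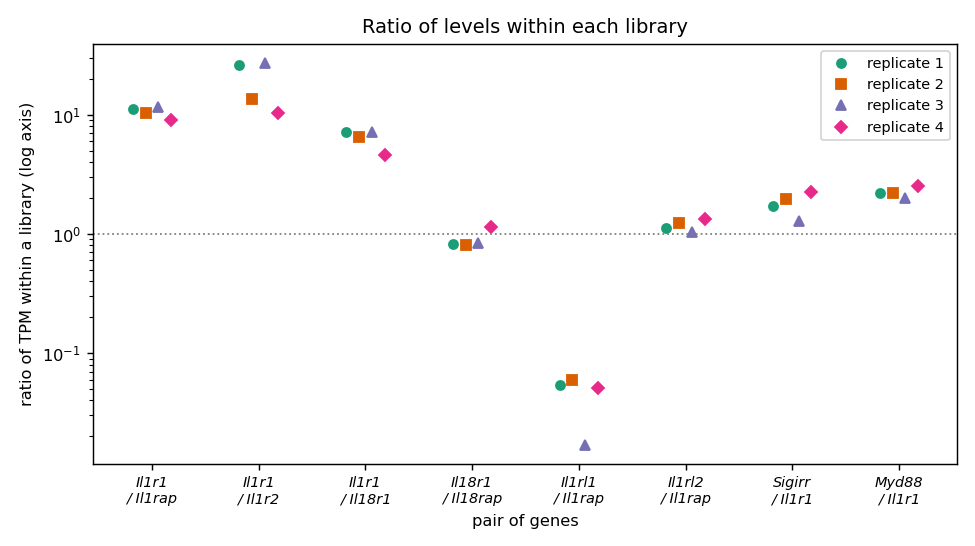
Ratio of TPM (log axis) between the first and the second gene of 8 pairs, within each of the 4 libraries. Symbols are libraries and the dotted line marks equal levels. Il1r1 lies 9.01 to 11.7 times above Il1rap. Il18r1 lies at 0.815 to 0.835 times Il18rap in replicates 1 to 3 and at 1.14 times in replicate 4.

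Of the 10 genes, 6 lie side by side on the plus strand of chromosome 1, in the order Il1r2, Il1r1, Il1rl2, Il1rl1, Il18r1 and Il18rap, over 478 kb. Levels did not follow the order of the genes. Il1r1, at 59.1 TPM, sat between Il1r2 at 3.41 TPM and Il1rl2 at 6.55 TPM, and Il1rl1, at 0.248 TPM, ended 136 bases before the start of Il18r1, at 9.40 TPM. None of the 10 genes shared an exonic base with another gene on its own strand. On the other strand, Gm20319 covered 4.86% of the Il1rap exons and Acaa1a 11.3% of the Myd88 exons, and the counting used strand.

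The genes around the cluster differed as widely. Within 500 kb on either side lay 9 other protein-coding genes, of which 3 had at least 1 TPM in the mean. Map4k4, a kinase gene next to Il1r2, had 123 ± 1.54 TPM (SD, n = 4), Rnf149, a ubiquitin ligase gene, had 70.3 ± 12.2 TPM and Mfsd9 had 1.30 ± 0.531 TPM. On the Il18rap side, the sodium-proton exchanger genes Slc9a4 and Slc9a2 had 0.0104 and 0.583 TPM, and Tmem182 had no count. Creg2, Rfx8 and Gm3646, upstream of Map4k4, had 0.0230, 0.752 and 0 TPM. None of the 13 noncoding genes in the window reached 1 TPM in the mean, and their highest level was 0.404 TPM.

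**Figure D3:**
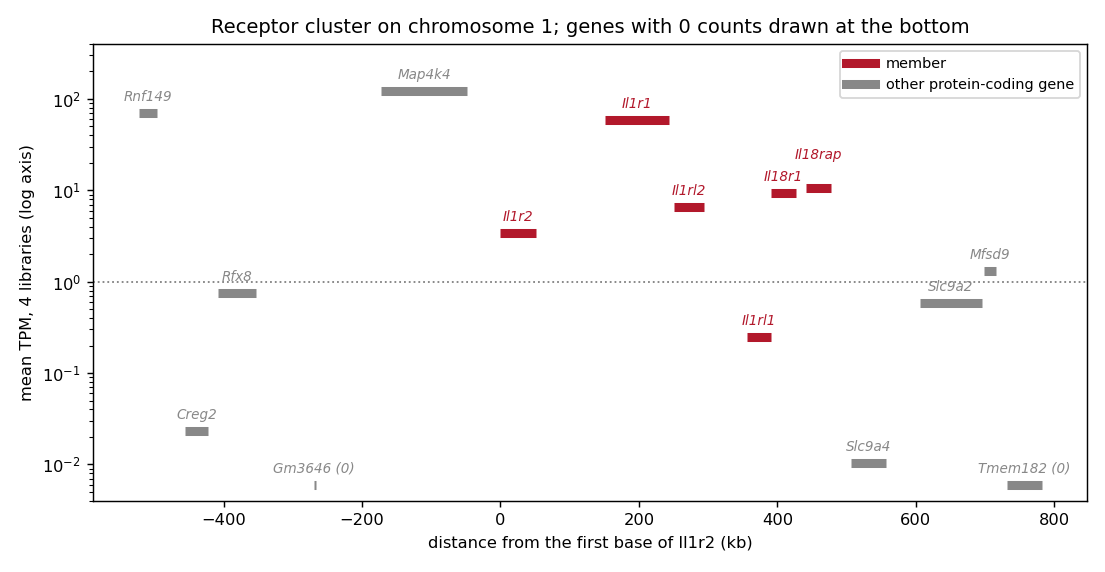
Mean TPM over 4 libraries (log axis) of protein-coding genes around the receptor cluster, drawn at their distance in kb from the first base of Il1r2. Red bars are the 6 receptor genes, grey bars the 9 other genes, bar length is the gene's extent, and genes with no count are drawn at the bottom. Il1r1 at 59.1 TPM and Il1rl1 at 0.248 TPM mark the range within the cluster.

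The spread between libraries was tested over 12156 genes with edgeR, as the excess of a gene's quasi-dispersion over the trend for its abundance. Of the 10 genes, 9 passed the filter on low counts and Il1rl1 did not. None of the 9 was called (edgeR, adjusted p from 0.6417 to 0.9969), beside 0.00823% of all genes tested, which is Xist alone. In this setting the test called 1 gene, against 126 with no filter on low counts and 20 without replicate 4. Il1rn had a quasi-dispersion 17.4 times that of the trend and still an adjusted p of 0.6417 (edgeR). A gene not called, here or in the lists below, is therefore not shown to be steady between libraries. At an unadjusted p under 0.05 there were 2 of the 9, beside 4.9% of all genes. These were Il1rn, with a coefficient of variation of 30.8% in CPM (edgeR, adjusted p = 0.6417), and Il1r1, with 17.1% (edgeR, adjusted p = 0.8747). The Il1rn result depends on the setting, since with no filter on low counts its adjusted p was 0.02474 (edgeR), and DESeq2 marked it, alone of the 9, as a dispersion outlier. Over the edgeR settings run its adjusted p ranged from 0.02474 to 0.8329.

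The other coefficients of variation ran from 4.46% for Il1rl2 and 6.30% for Il1rap, over 8.25% for Il18r1, 8.79% for Myd88, 9.09% for Sigirr and 11.2% for Il18rap, to 31.3% for Il1r2. The median over the 9 was 9.09%, beside 7.91% over all genes tested. Counting error alone gives 2.23% for Il1r1 and 4.57% for Il1rn, but 15.9% for Il1r2, about which less can be said at this depth.

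Relative to its own mean on the log2(CPM + 1) scale, Il1rn was at 0.50 in replicate 3 and -0.62 in replicate 4, with replicates 1 and 2 at 0.08 and 0.04. Il1r1 followed the same order at 0.27 in replicate 3 and -0.32 in replicate 4. Il1rap, Il18rap and Myd88 were also highest in replicate 3 and lowest in replicate 4, which makes 5 of the 9 genes, beside 20.6% of all genes tested. The same 5 were the genes highest in replicate 3 whatever their lowest library, beside 33.9% of all genes. The reverse order, highest in replicate 4 and lowest in replicate 3, was that of Il1rl2 alone, beside 20.5% of all genes. Without replicate 4 the mean of Il1rn was 19.2 TPM and that of Il1r1 63.1 TPM, and neither was called (edgeR, adjusted p = 0.6748 and 0.7378). Replicate 3 is the library with the fewest counts, and replicate 4 had the highest chi-square per gene against the others, a value that grows with depth. Replicates 3 and 4 also lay at opposite ends for other genes, such as the hypoxia-induced Ndrg1 at 19.1 and 82.6 TPM in replicates 3 and 4 and the cytokine gene Il9 at 734 and 245 TPM. The part of these differences in the order of the 5 genes was not tested.

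The decoy gene Il1r2, which had the largest coefficient of variation, was lowest in replicates 1 and 3, at -0.30 and -0.22, and highest in replicates 2 and 4, at 0.21 and 0.30. The 3 protein-coding genes with the nearest profile over the 4 libraries, by Euclidean distance between centred log2(CPM + 1) values, were Tbc1d30 at 0.0617, Gm10226 at 0.0662 and Cul9 at 0.0916. The median distance over 11068 genes was 0.548. Tbc1d30 and Gm10226 were low, at 0.521 to 1.45 and 1.07 to 2.04 CPM over the libraries, and Cul9 was at 4.77 to 7.91 CPM. At such low levels counting error is large, and the added 1 shrinks the distances. With 4 libraries, such nearness is a description of these samples.

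**Figure D4:**
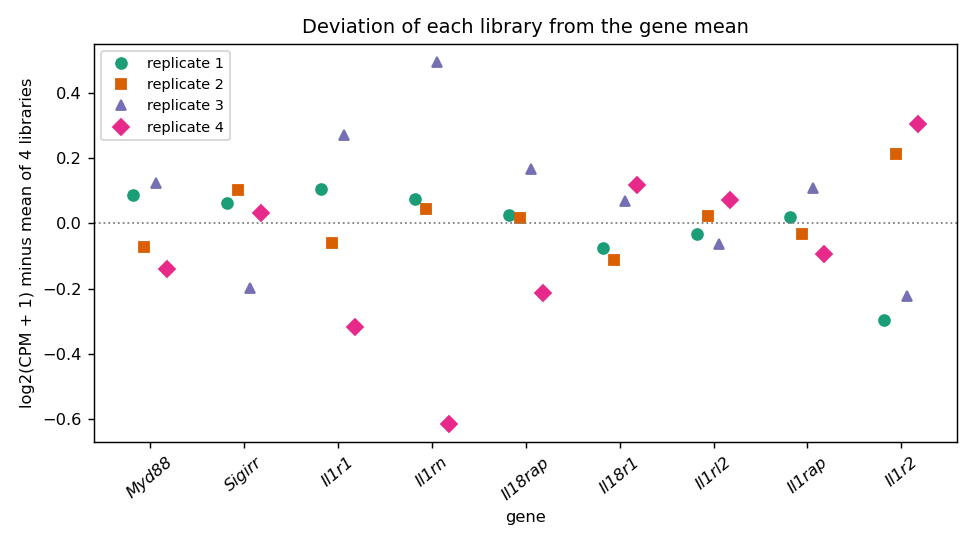
Log2(CPM + 1) of each library minus the gene's mean over 4 libraries, for the 9 genes that passed the filter. Symbols are libraries and the dotted line is the mean. Il1rn spans 0.50 in replicate 3 to -0.62 in replicate 4, while Il1rl2 stays within 0.07 of its mean.

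Among the ligands of these receptors, Il1a was the one transcript at a clear level. Il1a, which encodes IL-1 alpha, had 22.6, 19.7, 17.2 and 13.4 TPM in replicates 1 to 4, a mean of 18.2 ± 3.91 TPM (SD, n = 4). Il1b, which encodes IL-1 beta, had no count in any library, and neither did Il1f5, Il1f8, Il1f9 and Il1f10, of which Il1f8 and Il1f9 encode IL-36 beta and gamma. Il18 and Il33 had 0.506 and 0.224 TPM. Il18bp, the soluble IL-18 binding protein, had 4.69 ± 0.657 TPM. Il1a and Il18bp were the 2 of 10 genes in the ligand list that passed 1 TPM throughout, and neither was called for spread.

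Genes linked to the processing of the ligands were split. Casp8 had 176 ± 17.4 TPM, the adaptor gene Pycard 42.0 ± 1.38 TPM and the pore-forming Gsdmd 34.8 ± 4.00 TPM, the 3 highest of 9. Among the sensor genes, Aim2 was at 34.6 ± 1.77 TPM, close to Gsdmd, while Nlrp3, Nlrc4 and Nlrp1b were below 1 TPM in the mean, at 0.674, 0.0854 and 0.00452 TPM. Of the 9, 6 passed 1 TPM throughout, among them Casp1 at 24.2 ± 1.98 TPM.

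Downstream of the receptors, 18 of 20 genes of proximal signalling passed 1 TPM throughout, with a median of 37.9 ± 2.83 TPM. The kinase gene Map3k7, its partner Tab2 and the ubiquitin ligase gene Traf6 led at 99.1 ± 9.89, 98.0 ± 4.76 and 84.1 ± 6.34 TPM. Irak3, a kinase-dead inhibitor of the pathway, and Peli3 were below 1 TPM, at 0.357 and 0.604 TPM. No gene of the list was called for spread, and 2 had an unadjusted p under 0.05, which were Peli2 (edgeR, adjusted p = 0.8747) and Map3k8 (edgeR, adjusted p = 0.875). All 13 genes of the NF-kappaB arm and its feedback passed 1 TPM in every library, led by the inhibitor gene Nfkbia at 523 ± 24.2 TPM, Rela at 156 ± 6.64 TPM and Nfkb1 at 139 ± 8.94 TPM.

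TIR-domain relatives outside the 10 genes were mostly low. Of 15, 4 passed 1 TPM throughout and 11 were below 1 TPM in the mean. The adaptor gene Ticam1 at 46.7 ± 4.90 TPM, Pik3ap1 at 14.6 ± 1.15 TPM and Tlr1 at 4.18 ± 0.704 TPM were the highest. Il1rapl1, Il1rapl2, Tlr5 and Tlr8 had no count.

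**Figure D5:**
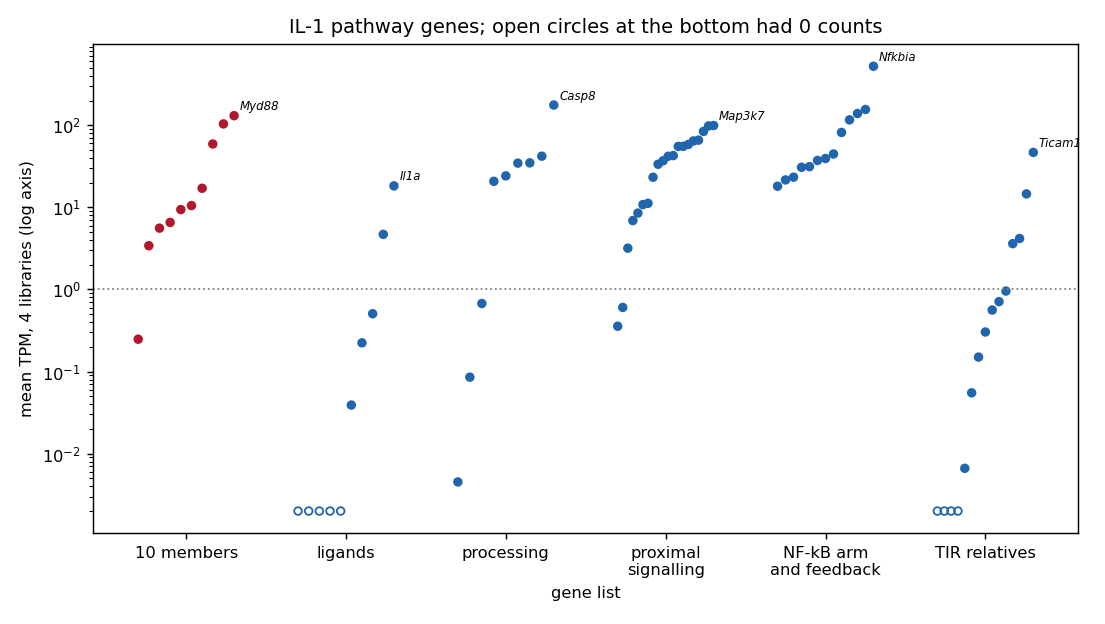
Mean TPM over 4 libraries (log axis) of the 10 genes (red) and of 5 lists of other IL-1 pathway genes (blue). Each point is 1 gene, the highest of each list is named, open circles at the bottom had no count, and the dotted line is 1 TPM. Il1a at 18.2 TPM stands apart from the other ligands, 5 of which had no count.

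As a whole the 10 genes had a median of 9.96 ± 0.519 TPM, beside 60.3 ± 5.58 TPM for 6 receptor chains of the IL-6, IL-12 and IL-23 group and 225 ± 13.5 TPM for 8 receptors of the common gamma chain group (SD, n = 4 each). Il1r1, at 59.1 TPM, was below Il23r at 80.2 TPM and above Il6ra at 31.0 TPM in the mean. All 6 chains of the IL-6 group and 7 of the 8 gamma chain receptors passed 1 TPM throughout. None of them was called for spread. Their unadjusted p was under 0.05 for 2 of 6 (Il6st and Il12rb2) and 1 of 7 tested (Il7r), beside 2 of 9 here.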

How the data were processed

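RNA was sequenced in 4 libraries of 1 group. The authors' deposited values are raw counts of read pairs per gene, summed by gene over GENCODE release 13 exons by featureCounts (version 1.4.6-p4), reverse-stranded (option 2), per the file headers. Multi-mapping reads and reads over several genes were not counted, per the same options. The build is mm10, per the labels. The assay label reads total RNA, but the linked protocol's name refers to poly(A) RNA. The aligner is not stated beyond a STAR mark in the input name.

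From the counts, TPM were computed with the files' exon lengths and CPM with TMM factors. For the gene pairs without a length correction, CPM used the library totals alone. Symbols came from GENCODE release 21 for 50376 of 50600 identifiers, and sequences from RefSeq (GRCm38.p6). The spread was tested with edgeR 4.0.16 (intercept-only quasi-likelihood fit, filterByExpr, upper tail of F, Benjamini-Hochberg over all genes, 0.05), and DESeq2 1.42.0 gave dispersion outliers as an alternative. The procedure was tested on simulated data. Between libraries, chi-square per gene, which grows with depth, was 3.47 to 19.9, above counting noise and highest for pairs with replicate 4, and all were kept as 4 replicates. Totals of 9382661 to 34542693 counts set the precision, given as exact Poisson intervals.

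The members and lists were chosen with earlier results of these data known. All 10 members are named, with the 3 highest and the members below 1 TPM of each other list (by name up to 5), the coding genes of the chromosome 1 window and the 3 nearest profiles to the most variable member. Other genes named, among them ligands and TIR relatives below 1 TPM, Il6ra, Il23r, Ndrg1, Il9, Xist, Ddx3y and genes with an unadjusted p under 0.05, were chosen after their values were seen. A planned comparison of protein sequences was not run.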

Additional observations from a re-analysis of the deposited data

Results flagged for a closer look

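Of 68 sets of 4 library values tested for a library far from the others, 6 were marked, and chance marks about 1 in 20. The Il18r1 to Il18rap difference was 0.17 on the log2(TPM + 1) scale in replicate 4, against -0.27 to -0.24 in the other 3 libraries, and the same pair counted the other way gave -0.17 against 0.24 to 0.27. Replicate 4 also held the far value for Irak4, at 12.7 TPM against 10.5 to 10.8, and for Nfkb1, at 152 TPM against 133 to 136. Replicate 3 held it for Gsdmd, at 28.8 TPM against 36.2 to 37.2, and for Tlr2, at 2.91 TPM against 3.76 to 3.94. The Tlr2 value of replicate 3 rests on 25 counts.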

How the results depend on the processing

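No paired analysis was possible because there is 1 group. Of the values recomputed under the alternatives, 273 were labelled the same and 14 moved, which were mean levels or numbers of calls. A further 8 reversed (some pairs counted in both families) and 1 passed the threshold (Il1rn with no filter, edgeR adjusted p = 0.02474). A mean level was labelled the same if it shifted by less than 1 SD. Leaving out 1 of 4 libraries cannot shift a mean that far, nor reverse a pair with 1 direction in all libraries. Those settings could not fail, so the 273 is no measure of robustness. Without a length correction (CPM), the differences of Il1rl2 over Il1rap, Sigirr over Il1r1 and Myd88 over Il1r1 were -0.48, -0.24 and -0.15 log2 units. With the length of the longest coding transcript, chosen after seeing the data, Il1rl2 over Il1rap was -0.27 and Il18r1 over Il1rl2 -0.063, and mean levels were 116 TPM for Sigirr, 47.0 for Il1r1, 27.8 for Il1rn, 7.92 for Il18r1, 8.31 for Il1rl2 and 10.2 for Il1rap. These reversals follow from the change of length. With TPM over protein-coding genes, Il1rl2 was 7.03 and Il1rap 5.98 TPM. The spread test called 126 genes with no filter, Il1rn making 1 of the 10 members, 5 with a mean count of at least 50, 20 without replicate 4 and 1 without any other replicate. DESeq2 marked 103 genes, 1 of them a member (Il1rn), against 1 gene and 0 members as reported, and the cause was not tested. Without replicate 4, Il18r1 lay below Il18rap in 3 of 3 libraries, by -0.25 log2 units. Depth limits Il1rl1 and Il1r2, with 56 and 195 counts over 4 libraries.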
